A study of Homo sapiens with 54 samples.

Results

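The 41 genes described here act in glucose uptake, glycolysis, the handling of pyruvate and lactate, and the response to low oxygen. They were chosen by name, and each of the 41 has 1 row among the 19225 gene rows of the deposited table. The list holds 4 glucose carriers, 18 genes of glycolysis, 6 genes of pyruvate and lactate handling, 12 targets and regulators of the hypoxia-inducible factors (HIF) and 1 enzyme of the pentose phosphate pathway.

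RNA was sequenced from 3 human prostate cancer cell lines: LNCaP, its derivative C4-2, and 22Rv1, which comes from a separate tumour xenograft. Each line had 6 groups of 3 libraries, 54 in all, which the labels call biological triplicates. One group received ethanol vehicle and one the estrogen 17beta-estradiol at 100 nM, called E2 below. A further group had OSU-ERb-12, called OSU, also at 100 nM, and another the androgen receptor antagonist enzalutamide, called Enza, at 1 µM. The last groups combined E2 or OSU with the antagonist, and treatment lasted 12 h. The study's title places it in work on the functions of estrogen receptor beta. Every group, vehicle included, was grown in medium with fetal bovine serum. Oxygen was not among the variables, so no group is a hypoxia control. Each line stands for 1 tumour's cells, and a line's 3 libraries measure the spread between cultures, not between patients. The titles mark the OSU groups by WT, and the OSU with Enza groups are labelled with WT in place of the compound's name. That these cells received OSU therefore rests on the matching OSU groups and the design text.

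Between 32819568 and 52417050 reads fell in genes per library, and levels are given per 1000000 reads as CPM, where a single read equals 0.0204 to 0.0323 CPM. The luminal prostate markers summed to 1697 to 5924 CPM in every library, whereas the summed fibroblast markers stayed at or below 22.5 CPM and the leukocyte markers at or below 1.5 CPM. Of the luminal markers, KLK3 (4.34 to 22.3 CPM) and TMPRSS2 (12.6 to 24.2 CPM) were low in 22Rv1, with KLK3 at 385 CPM or more in the other lines. The leukocyte sum rests on 2 markers and the endothelial value on 1, since others, among them PTPRC and PECAM1, had no row. The endothelial marker VWF reached 18.7 CPM in LNCaP. The neuroendocrine markers summed to 160.8 to 170.7 CPM in 22Rv1, nearly all of it from the member ENO2, with CHGA at or below 0.587 and SYP at or below 3.7 CPM. C4-2 vehicle library 1 carries a cell line tag of 22Rv1 and was kept as C4-2, as titled. It held 3629 reads of the member SLC2A1, against 3496 and 2865 in the other C4-2 vehicle libraries and 57380 to 69375 in those of 22Rv1. Of the member SLC16A3 it held 3447 reads, against 3417 and 3096 in C4-2 and 176 to 202 in 22Rv1. C4-2 E2 library 3 and 22Rv1 vehicle library 3 had the highest shares of mitochondrial ribosomal RNA (0.149% and 0.196%, against 0.0084% to 0.0974% in the other 52 libraries). 22Rv1 Enza library 3 had the highest shares of small nuclear and nucleolar RNA (4.36%) and of mitochondrial genes (4.80%) of all 54 libraries, and was not set aside with them. C4-2 vehicle library 1, C4-2 E2 library 3 and 22Rv1 vehicle library 3 are called the 3 libraries that stand apart below. Where leaving them out changed a count below by over 1.5 times, the value without them stands beside it.

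Glucose enters a cell through carriers of the SLC2A (GLUT) family and is trapped by hexokinase. The PFKFB enzymes make fructose 2,6-bisphosphate, the activator of phosphofructokinase, and so set the pace of glycolysis. Pyruvate is then reduced to lactate by lactate dehydrogenase and exported by SLC16A carriers, or oxidised in mitochondria, a step that PDK kinases restrain. HIF1A and EPAS1 are oxygen-sensitive transcription factors that raise many of these genes. EGLN enzymes mark both factors for destruction when oxygen is present, and luminal prostate cancer cells also place several of the carriers and kinases under androgen receptor control.

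The lines differed in these genes before any treatment. SLC2A1, the widespread glucose carrier GLUT1, was read at 58.9, 55.8 and 64.6 CPM in the 3 LNCaP vehicle libraries, at 82.1, 72.2 and 73.8 CPM in C4-2 and at 1379, 1446 and 1485 CPM in 22Rv1. No value of 22Rv1 came near those of the other lines. The difference of 22Rv1 from LNCaP was 4.58 ± 0.05 on the log2 scale (SE; adjusted p = 9.32e-51, limma). SLC2A10, a further carrier, was also highest in 22Rv1, with 5.99 ± 0.290 CPM (SD, n = 3) in 22Rv1, against 0.255 ± 0.111 in LNCaP and 0.0585 ± 0.0623 in C4-2. SLC2A12 ran the other way, with LNCaP at 18.7 ± 1.62 CPM, C4-2 at 17.8 ± 1.42 and 22Rv1 at 7.91 ± 0.166. Per kilobase of transcript, SLC2A1 was the most abundant of the 4 listed carriers in each line, at 17.7 ± 1.32 CPM per kb in LNCaP and 425 ± 15.7 in 22Rv1, where SLC2A12 stood at 1.42 ± 0.0297.

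SLC16A3, the lactate exporter MCT4, marked C4-2. Its levels were 77.99, 70.6 and 79.7 CPM in the C4-2 vehicle libraries, against 1.86, 1.43 and 1.39 CPM in LNCaP and 4.23, 4.27 and 4.32 CPM in 22Rv1, a difference from LNCaP of 5.22 ± 0.10 (log2, adjusted p = 9.08e-40). SLC16A1, the carrier MCT1, was at 182 ± 3.74 CPM in LNCaP, at 189 ± 1.78 in C4-2, and was lower in 22Rv1 at 80.6 ± 2.48. Isozyme pairs also split by line. ENO2, the enolase usual in neurons and neuroendocrine cells, was at 162 ± 2.31 CPM in 22Rv1 and 11.9 ± 0.700 in LNCaP, while its partner ENO1 was lower in 22Rv1 (744 ± 15.5 against 1276 ± 60.3 CPM). ALDOC likewise differed between 22Rv1 and LNCaP by 2.24 ± 0.07 and ALDOA by -0.48 ± 0.05. Of the lactate dehydrogenase subunits, LDHA per kilobase exceeded LDHB in neither LNCaP (269 ± 31.3 against 322 ± 12.5 CPM per kb) nor C4-2 (493 ± 17.9 against 576 ± 19.7). The gap was widest in 22Rv1, at 158 ± 4.78 against 626 ± 13.2 CPM per kb.

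In C4-2, 27 of the 39 members tested between lines were higher than in LNCaP and 5 were lower, with 66.7% of all genes called (34.0% higher, 32.7% lower). The listed genes had a median log2 difference of 0.36, with the median over all genes at 0. Scaling by total reads moved the median over all genes to -0.10 and that of the listed genes to 0.24, with 25 members higher and 7 lower. Of the 18 glycolysis genes, 15 were higher, LDHA outside that group was higher by 0.88 ± 0.06, and GPI by 0.81 ± 0.04. In 22Rv1, 11 of 39 were higher than in LNCaP and 26 were lower, against a background of 83.3% (40.4% higher, 43.0% lower). Of the 10 tested HIF targets and regulators, 9 were lower and EGLN1 was higher (0.13 ± 0.04). Of 30 tested HIF targets outside the 41 genes, 14 were higher and 13 lower. EGLN3 differed by -2.85 ± 0.13, PDK1 by -1.92 ± 0.07, BNIP3 by -1.70 ± 0.07 and HIF1A itself by -0.84 ± 0.05. CA9, the carbonic anhydrase often used as a hypoxia marker, never passed the filter of 1 CPM in 3 libraries. Its 22Rv1 vehicle libraries read 10, 20 and 17 reads, its LNCaP vehicle libraries 0, 0 and 2 and its C4-2 vehicle libraries 0, 2 and 4. In bulk RNA a lower value can mean fewer transcribing cells or less RNA per cell, and these cannot be told apart.

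**Figure D1:**
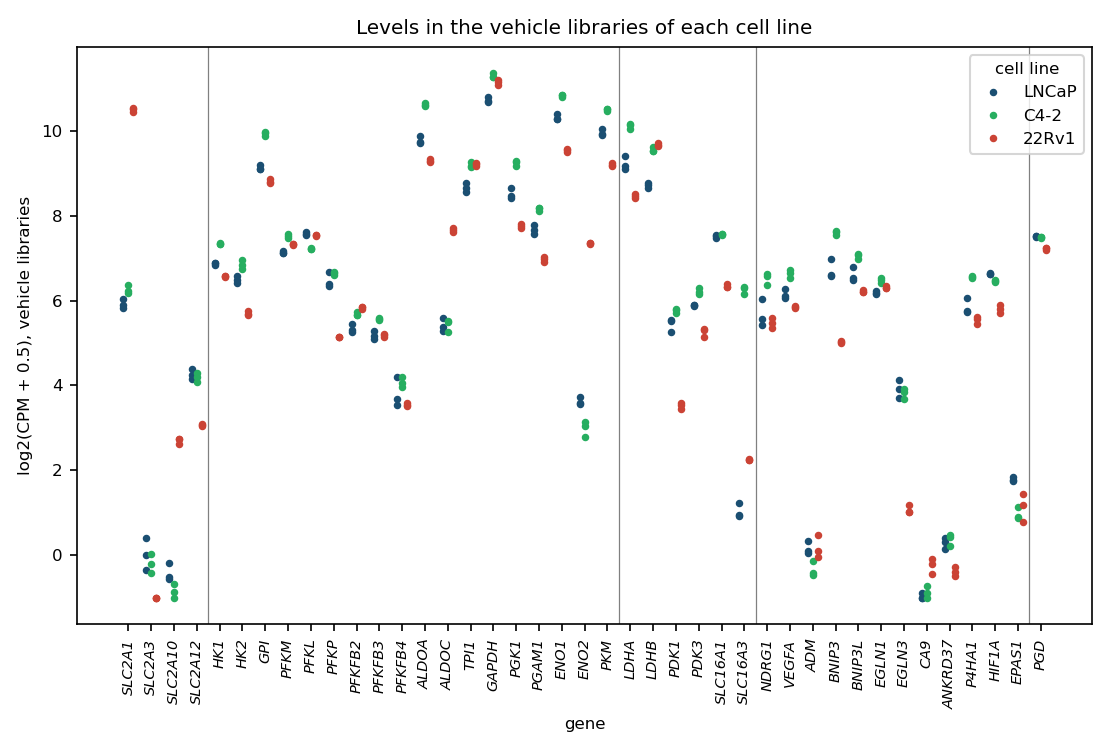
Level of each of the 41 genes in the vehicle libraries, as log2(CPM + 0.5) on the vertical axis, with 1 point per library and 3 libraries per line. Points are to be compared within a gene, since CPM is not corrected for length. SLC2A1, SLC2A10, ENO2 and ALDOC stand highest in 22Rv1, SLC16A3 in C4-2.

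Treatments moved fewer of the genes. Between 37 and 39 members could be tested: ADM and CA9 passed the filter in no fit, SLC2A10 failed it in LNCaP and C4-2, and SLC2A3 and ANKRD37 failed it in 22Rv1. E2 against vehicle called 11 of 38 members in LNCaP, 6 higher and 5 lower, where 24.9% of all genes were called (13.3% higher, 11.6% lower). In C4-2 it called 2 of 38, both higher (background 5.82%, with 2.72% higher and 3.11% lower), and 1 of them is SLC2A3, which entered that fit only through its E2 libraries. The C4-2 count was 4 by total reads, by TMM scaling and in the fit of all 54 libraries, and 6 after cyclic loess. The shares of all genes called in these refits are not given here. In 22Rv1 it called 16 of 37, 15 of them higher (background 27.7%, with 17.1% higher and 10.6% lower). Calls were made at an adjusted p of 0.05 by limma with Benjamini-Hochberg adjustment over all genes, two-sided.

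Enza against vehicle called 10 of 38 members in LNCaP, 4 higher and 6 lower (background 20.4%, with 9.79% higher and 10.6% lower). In C4-2 it called 5 of 38, 1 higher and 4 lower (background 8.44%, with 2.73% higher and 5.71% lower). In 22Rv1 none of 37 was called by limma on log2 CPM or with voom weights, 2 had an unadjusted p under 0.05 (14.8% of all genes did), and 0.659% of all genes were called. The addition of E2 to Enza, E2+Enza against Enza, called 13 of 38 in LNCaP (8 higher, 5 lower; background 23.1%, with 12.2% higher and 10.9% lower). It called 5 of 38 in C4-2, all higher (background 7.38%, with 4.43% higher and 2.94% lower), and 3 of 37 in 22Rv1, all higher (background 7.94%, with 4.11% higher and 3.83% lower). SLC2A3 is in the LNCaP and C4-2 counts of E2, Enza and E2+Enza alike. It entered those fits mainly through libraries with E2. The share of listed genes called was above the background in several of these comparisons, E2 in 22Rv1 and E2+Enza in LNCaP among them. In both of these, well expressed genes as a whole also differed from that background. Of all genes at 100 CPM or more, 39.1% were higher and 6.66% lower under E2 in 22Rv1, and 16.2% were higher and 16.3% lower under E2+Enza in LNCaP. The 22Rv1 count of 16 was 6 by total reads and 10 without vehicle library 1. The backgrounds given are those of the main fits and do not apply to such refits. Some splits of direction moved with scaling: E2 in LNCaP gave 4 higher and 6 lower by total reads, and E2+Enza in 22Rv1 gave 5 higher and 1 lower after cyclic loess. E2 against vehicle and Enza against vehicle share their vehicle libraries, and Enza against vehicle and E2+Enza against Enza share their Enza libraries.

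**Figure D2:**
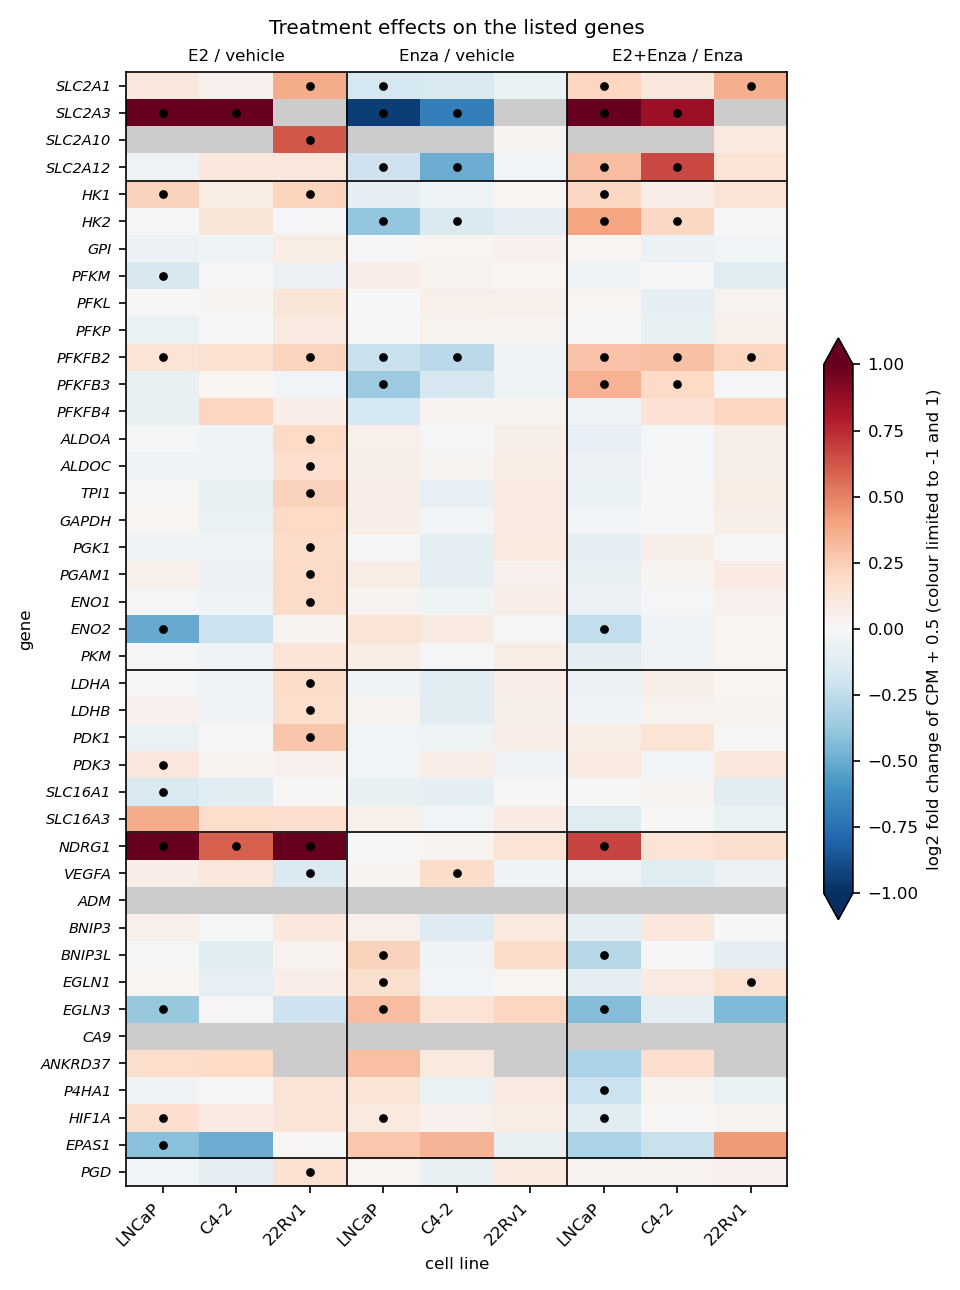
Log2 fold change of CPM + 0.5 for each listed gene (rows, grouped by role) in 9 comparisons (columns, by treatment and line). Red is higher, blue is lower, colours end at -1 and 1, dots mark calls at an adjusted p of 0.05, and grey cells were not tested. NDRG1 and SLC2A3 carry the deepest red under E2, and SLC2A3, SLC2A12, HK2, PFKFB2 and PFKFB3 turn from blue under Enza to red when E2 is added.

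NDRG1, a stress- and differentiation-linked protein induced by hypoxia and by androgen, rose with E2 in all 3 lines. In LNCaP its vehicle libraries read 47.2, 42.5 and 65.3 CPM and its E2 libraries 288, 273 and 259.7 CPM, so that the lowest E2 library stood far above the highest vehicle library. In C4-2 the values were 95.2, 81.6 and 98.7 CPM with vehicle and 152, 130.2 and 135 CPM with E2. In 22Rv1 they were 40.7, 44 and 47.3 CPM and 91.7, 92.01 and 84.3 CPM. The groups overlapped in no line. The log2 changes were 2.42 ± 0.10 in LNCaP (adjusted p = 1.37e-16), 0.60 ± 0.08 in C4-2 (adjusted p = 4.81e-06) and 1.01 ± 0.06 in 22Rv1 (adjusted p = 2.3e-13). The size of the effect differed between lines, with the C4-2 effect smaller than that of LNCaP by a log2 difference of -1.82 ± 0.14.

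Enza alone left no called change in NDRG1. The LNCaP Enza libraries read 57.6, 41.02 and 54.8 CPM, those of C4-2 89.2, 94.8 and 95.8 and those of 22Rv1 47.9, 52.2 and 45.3, with 95% intervals of the log2 change of -0.22 to 0.21, -0.13 to 0.18 and 0.01 to 0.26. With both agents LNCaP read 85.2, 79.7 and 78.1 CPM, C4-2 read 102, 96.9 and 108 and 22Rv1 read 50.3, 55.3 and 57.5, all below the same line's E2 libraries. E2 in the presence of Enza still raised NDRG1 in LNCaP (0.67 ± 0.10, adjusted p = 1.07e-05). In C4-2 (0.13 ± 0.08, adjusted p = 0.363) and 22Rv1 (0.16 ± 0.06, adjusted p = 0.111) it was not called. The interaction, the E2 effect with Enza minus the E2 effect without, was negative and called in each line: -1.74 ± 0.15, -0.46 ± 0.11 and -0.85 ± 0.09, with adjusted p of 2.23e-09, 0.0249 and 1.04e-06. The C4-2 interaction lost its call without vehicle library 2 (-0.38, adjusted p = 0.0877), E2 library 1 (-0.40, 0.0812), Enza library 2 (-0.45, 0.0811) or Enza library 3 (-0.44, 0.0744), with no filter on low values (adjusted p = 0.0706) and in the fit of all 54 libraries (adjusted p = 0.0608).

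SLC2A3, the high-affinity glucose carrier GLUT3 (chr12:7919230-7936187, GRCh38.p14), moved most among the carriers, from a low level. The LNCaP vehicle libraries held 40, 11 and 23 reads, the E2 libraries 362, 421 and 443 reads, the Enza libraries 0, 2 and 2 reads and the libraries with both 84, 71 and 52 reads. In C4-2, 23, 12 and 14 reads were held with vehicle, 78, 90 and 94 with E2, 0, 6 and 0 with Enza and 23, 18 and 24 with both. No 22Rv1 library held more than 4 reads, too few for a comparison at this depth. In LNCaP and C4-2 the order was therefore E2 highest, Enza lowest, and the combination above vehicle in LNCaP and overlapping vehicle in C4-2. SLC2A3 passed the filter in C4-2 through its 3 E2 libraries alone and in LNCaP through 7 of 18 libraries, so its inclusion in those fits leans on the group where it is high. Without any 1 of the 3 E2 libraries it no longer passed in C4-2 and could not be tested there.

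On the log2(CPM + 0.5) scale, which understates changes of genes this low, SLC2A3 with E2 differed from vehicle by 3.24 ± 0.20 in LNCaP and by 1.53 ± 0.19 in C4-2. Both are given as descriptions, without a test, because the E2 libraries helped it pass the filter. Enza changed it by -0.94 ± 0.20 in LNCaP (adjusted p = 0.00103) and -0.69 ± 0.19 in C4-2 (adjusted p = 0.0217). All vehicle and Enza libraries of both lines lay below 1 CPM for this gene. The C4-2 call under Enza was lost without vehicle library 1, whose tag says 22Rv1 (-0.57, adjusted p = 0.129), vehicle library 3 (-0.69, 0.0552), Enza library 1 (-0.63, 0.0659) or Enza library 3 (-0.63, 0.0919), and at a pseudocount of 2 CPM (adjusted p = 0.0903). With E2 on top of Enza, SLC2A3 stood higher by 1.91 ± 0.20 in LNCaP and by 0.86 ± 0.19 in C4-2, again as descriptions. In C4-2 the libraries of both groups lay below 1 CPM. The interaction in LNCaP, which uses the E2 libraries, is likewise a description. It was -1.32 ± 0.28 on this scale and 1.35 with voom weights on the reads, so its sign depends on how values near 0 are treated. SLC2A14, a near-identical neighbouring gene, passed the filter in no line. How reads shared by the pair were counted is not given in the sources used here, so the split between them is uncertain.

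**Figure D3:**
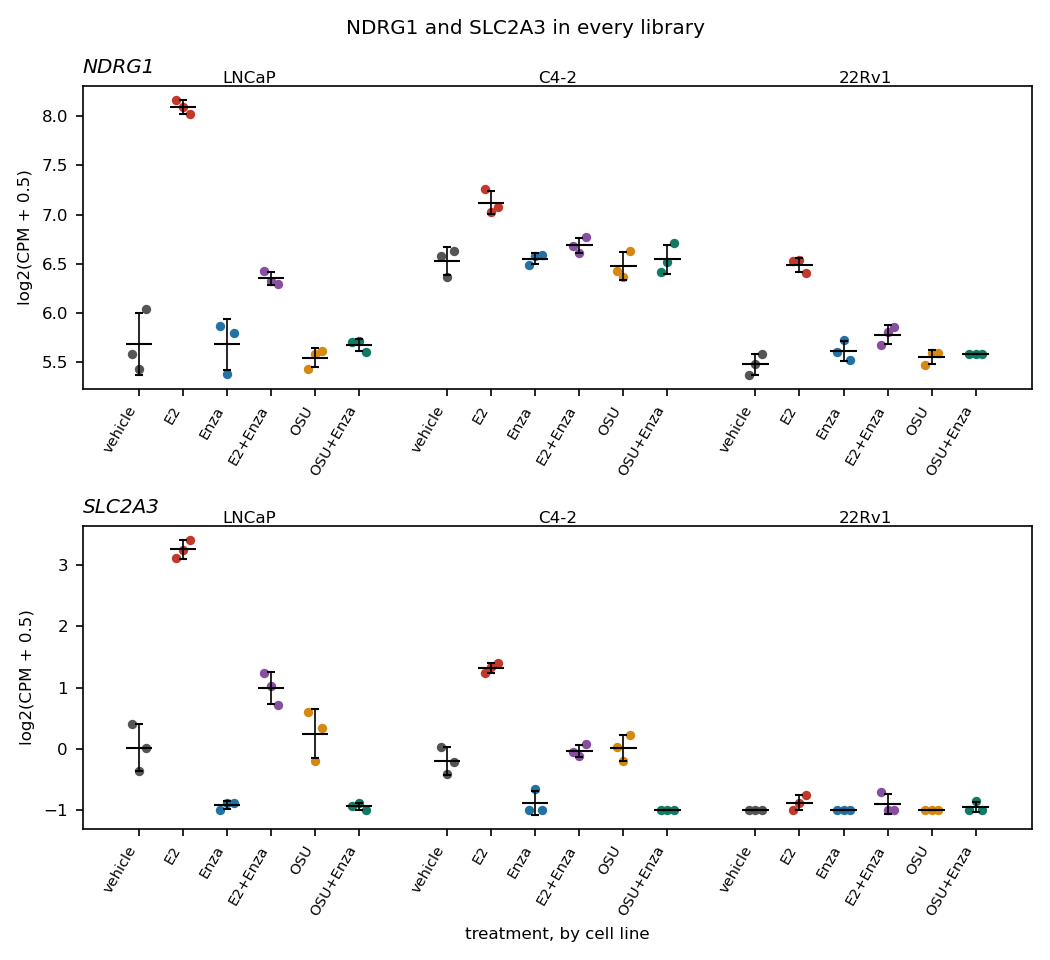
NDRG1 (top) and SLC2A3 (bottom) in each of the 54 libraries, as log2(CPM + 0.5) on the vertical axis, by line and treatment; horizontal bars are group means and error bars SD (n = 3). In each line the E2 group of NDRG1 lies above the other 5 groups. SLC2A3 lies highest under E2 and lowest in both Enza groups without E2 in LNCaP and C4-2, and at the floor throughout 22Rv1.

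A second set of genes in LNCaP fell with Enza and rose when E2 was added to Enza, with at most a small change under E2 alone: the carrier SLC2A12, the hexokinase HK2, and the kinase-phosphatases PFKFB2 and PFKFB3. HK2 in LNCaP read 88.3, 84.6 and 94.7 CPM with vehicle, 87.7, 88.97 and 88.9 with E2, 70.7, 68.9 and 65.1 with Enza and 85.6, 90.1 and 93.5 with both. Only the Enza libraries, of these 4 groups, were low, and they overlapped none of the others. PFKFB3 in LNCaP read 35.3, 33.6 and 38.3 CPM with vehicle and 35.4, 33.2 and 33.2 with E2, against 28.7, 26.4 and 27.8 with Enza and 35.1, 34.8 and 35.8 with both. SLC2A12 in C4-2 read 19.2, 16.3 and 17.95 CPM with vehicle, 20.01, 18.2 and 19.7 with E2, 13.2, 12.4 and 11.8 with Enza and 19.7, 19.9 and 20.4 with both. In both of these genes the Enza libraries lay below all others named. For SLC2A12 in C4-2 the libraries with both agents also lay above those with vehicle. PFKFB2 in C4-2 read 52.4, 50.4 and 49.7 CPM with vehicle and 56.1, 54.7 and 58.5 with E2, against 44.4, 40.9 and 40.9 with Enza and 52.5, 52.6 and 49.7 with both. For PFKFB2 the E2 libraries also lay above those with vehicle.

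In LNCaP, Enza lowered HK2, PFKFB3, PFKFB2, SLC2A12 and SLC2A1, with log2 changes of -0.38 ± 0.04 (adjusted p = 1.22e-07), -0.37 ± 0.05, -0.22 ± 0.05, -0.21 ± 0.06 and -0.18 ± 0.05. The SLC2A1 call was lost without vehicle library 3 (-0.12, adjusted p = 0.0939) or Enza library 2 (-0.11, 0.121). The SLC2A12 call was lost without vehicle library 2 (-0.21, 0.0563), vehicle library 3 (-0.14, 0.133) or Enza library 2 (-0.17, 0.0937), and in the fit of all 54 libraries (0.0647). E2 on top of Enza raised all 5: HK2 by 0.39 ± 0.04 (adjusted p = 4.13e-08), PFKFB3 by 0.35 ± 0.05, SLC2A12 by 0.31 ± 0.06, PFKFB2 by 0.29 ± 0.05 and SLC2A1 by 0.22 ± 0.05. Without Enza, the 95% intervals of the E2 effect were -0.10 to 0.08 for HK2, -0.18 to 0.04 for PFKFB3 and -0.18 to 0.08 for SLC2A12. The interaction was called for HK2 (0.40 ± 0.06, adjusted p = 4.46e-05), PFKFB3 (0.42 ± 0.07, 0.000398) and SLC2A12 (0.36 ± 0.09, 0.0109), and not for PFKFB2 (0.15 ± 0.07, 0.16).

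C4-2 showed the same directions with fewer calls. Enza lowered SLC2A12, with a log2 change of -0.49 ± 0.08 (adjusted p = 6.13e-05), and PFKFB2, with -0.27 ± 0.05 (adjusted p = 0.000387). HK2 changed by -0.14 ± 0.05 with an adjusted p of 0.0499, a call lost under each other scaling tried and without any library of the pair of groups but vehicle library 2. E2 on top of Enza raised SLC2A12 by 0.66 ± 0.08, PFKFB2 by 0.29 ± 0.05, HK2 by 0.20 ± 0.05 and PFKFB3 by 0.20 ± 0.06. Without E2+Enza library 1 HK2 was at 0.15 (adjusted p = 0.0524), and PFKFB3 lost its call without any 1 library but E2+Enza library 2, down to 0.14 (adjusted p = 0.248) without E2+Enza library 3. The count of listed genes called under Enza in C4-2 was 2 in place of 5 when vehicle library 1, Enza library 3 or the 3 libraries that stand apart were left out. It was 3 without vehicle library 3, Enza library 1 or Enza library 2. The count for E2+Enza against Enza was 3 in place of 5 without E2+Enza library 1. In 22Rv1, SLC2A12, HK2 and PFKFB3 had Enza effects with intervals of -0.22 to 0.16, -0.22 to 0.03 and -0.17 to 0.06. The Enza effect differed between the lines for 7 of the 39 members (background 13.3%), these 4 genes, SLC2A3, BNIP3L and VEGFA. SLC2A3 is counted with its 22Rv1 values at the floor, and C4-2 and LNCaP differed in its Enza effect by 0.25 (adjusted p = 0.527). That count was 4 without any 1 of C4-2 vehicle library 1, 22Rv1 vehicle libraries 1 or 2, 22Rv1 Enza library 1 or C4-2 Enza libraries 2 or 3, and 3 without the 3 libraries that stand apart.

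**Figure D4:**
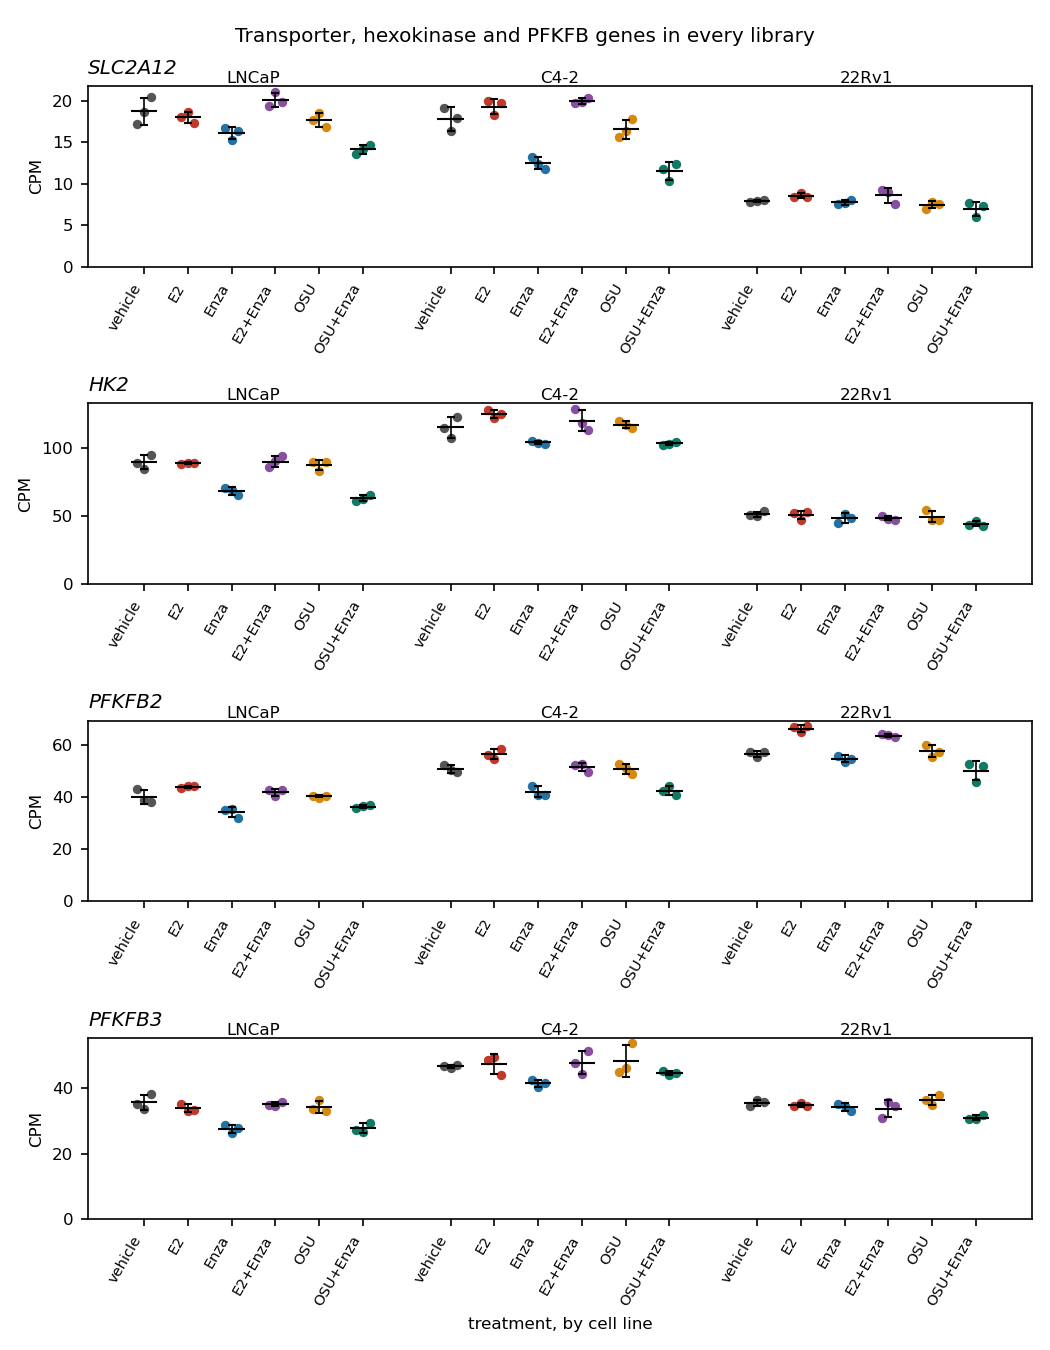
SLC2A12, HK2, PFKFB2 and PFKFB3 in each of the 54 libraries, in CPM on the vertical axis from 0, by line and treatment; horizontal bars are group means and error bars SD (n = 3). In LNCaP and C4-2 the means of the Enza and OSU+Enza groups sit below those of vehicle and E2, and E2+Enza sits near vehicle or above it. In 22Rv1 the 6 groups of SLC2A12, HK2 and PFKFB3 lie close together.

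Promoter sequence was looked at for genes that moved together and for LDHA, which was called with neither agent in LNCaP. RefSeq promoter windows of 300 bases (GRCh38.p14) were at hand for 35 of the 41 members. Those of SLC2A3, PFKFB2, NDRG1, BNIP3L, SLC16A1 and VEGFA were not used here. The windows printed below hold the gene start. For some members, among them GPI, SLC16A3, PFKFB4 and PGAM1, the window lies further inside the annotated gene. The core of a HIF binding site is ACGTG or GCGTG. These letters were searched on both strands, overlapping matches counted separately, so that CACGTG counts as 2 matches. The first core, ACGTG, was found in 16 of the 35 member windows and in 21.4% of all 35116 windows, the second, GCGTG, in 17 of 35 and in 36.5%, and at least 1 of them in 26 of 35 and in 48.4%. AGAACA, part of the element that androgen and glucocorticoid receptors bind, was found in 3 of 35 (GPI, ALDOA and ADM) and in 14.8% of all windows. In the windows below, 5′ to 3′ along the gene's strand, capitals mark ACGTG or GCGTG on either strand (CACGT and CACGC on the opposite one). HK2 and PFKFB3 are shown because Enza lowered both, SLC2A1 because E2 raised it in 22Rv1, and LDHA because it holds 6 matches, the most of any member window together with BNIP3.
HK2 (chr2:74833877-74834176, plus strand): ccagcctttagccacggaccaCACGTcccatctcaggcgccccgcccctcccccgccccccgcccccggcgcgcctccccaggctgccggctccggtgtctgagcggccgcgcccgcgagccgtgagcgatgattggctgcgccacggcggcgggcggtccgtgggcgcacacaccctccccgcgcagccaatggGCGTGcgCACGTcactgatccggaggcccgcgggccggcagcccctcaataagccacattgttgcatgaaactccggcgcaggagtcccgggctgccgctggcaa
PFKFB3 (chr10:6144671-6144970, plus strand): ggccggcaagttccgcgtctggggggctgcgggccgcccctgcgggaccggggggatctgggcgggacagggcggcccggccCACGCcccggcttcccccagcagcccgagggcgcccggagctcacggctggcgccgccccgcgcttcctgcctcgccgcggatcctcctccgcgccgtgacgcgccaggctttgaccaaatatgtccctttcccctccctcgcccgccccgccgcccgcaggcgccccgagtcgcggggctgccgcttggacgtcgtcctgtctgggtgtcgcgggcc
SLC2A1 (chr1:42958819-42959118, minus strand): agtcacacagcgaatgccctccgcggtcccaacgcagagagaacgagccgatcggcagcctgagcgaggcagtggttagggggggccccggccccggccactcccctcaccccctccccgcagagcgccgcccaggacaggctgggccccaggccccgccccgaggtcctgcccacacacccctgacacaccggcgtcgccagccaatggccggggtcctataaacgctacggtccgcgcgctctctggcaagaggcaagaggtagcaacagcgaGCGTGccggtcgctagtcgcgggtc
LDHA (chr11:18394313-18394612, plus strand): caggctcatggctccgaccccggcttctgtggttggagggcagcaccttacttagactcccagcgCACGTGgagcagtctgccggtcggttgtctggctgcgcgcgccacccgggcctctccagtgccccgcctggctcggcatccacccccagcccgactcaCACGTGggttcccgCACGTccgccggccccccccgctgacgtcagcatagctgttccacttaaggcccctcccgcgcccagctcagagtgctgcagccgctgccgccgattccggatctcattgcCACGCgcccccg
HK2 holds 3 matches, and PFKFB3 and SLC2A1 hold 1 each. SLC2A12, which moved with HK2 and PFKFB3, holds neither HIF core nor AGAACA in its window. A match describes letters only, and the window leaves out enhancers.

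In 22Rv1, the members called under E2 fell into those that kept their call under each scaling and those that did not. SLC2A1 read 1379, 1446 and 1485 CPM with vehicle and 1872, 1912 and 1782 CPM with E2, groups that did not overlap (0.37 ± 0.06, adjusted p = 6.58e-05). It rose as well when E2 was added to Enza, from 1379, 1462 and 1272 CPM to 1733, 1732 and 1810.0 CPM (0.36 ± 0.06, adjusted p = 0.000123). The interaction interval was -0.19 to 0.17. SLC2A10 read 6.13, 5.66 and 6.18 CPM with vehicle, 9.83, 9.90 and 8.73 with E2 and 6.28, 6.08 and 7.38 with both. Its change was called with E2 alone (0.62 ± 0.10, adjusted p = 5.51e-05) and not on top of Enza (0.10 ± 0.10, adjusted p = 0.681). The interaction of -0.52 ± 0.14 was not called (adjusted p = 0.108). HK1, the broadly expressed hexokinase, rose by 0.22 ± 0.05 in 22Rv1 and by 0.23 ± 0.03 in LNCaP, while HK2 had intervals of -0.14 to 0.11 and -0.10 to 0.08. VEGFA, the angiogenic factor, was the 1 listed gene lower with E2 in 22Rv1 (57.2, 58.4 and 56.3 CPM with vehicle, 52, 53.3 and 49.9 with E2; -0.15 ± 0.04). It lost its call without vehicle library 2 (-0.13, adjusted p = 0.0624) or E2 library 3 (-0.12, 0.0649). PFKFB2 rose by 0.22 ± 0.05 with E2 alone and by 0.22 ± 0.05 on top of Enza.

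Of the 18 glycolysis genes, 8 were higher with E2 in 22Rv1 and none was lower: HK1, PFKFB2, TPI1, ALDOA, ALDOC, PGK1, PGAM1 and ENO1. Over all genes 17.1% were higher and 10.6% lower, and among all genes at 100 CPM or more 39.1% were higher, a share near that of the glycolysis genes. The other 10, among them PKM at 0.13 ± 0.06, GPI at 0.08 ± 0.05 and PFKM at -0.06 ± 0.04, were not called. TPI1, which interconverts the triose phosphates, read 578, 601 and 590.1 CPM with vehicle and 702, 728 and 643 CPM with E2 (0.23 ± 0.06, adjusted p = 0.00493). ALDOA changed by 0.20 ± 0.06, PGAM1 by 0.19 ± 0.05, ENO1 by 0.19 ± 0.06, PGK1 by 0.19 ± 0.05, LDHA by 0.18 ± 0.05, LDHB by 0.18 ± 0.06 and ALDOC by 0.17 ± 0.06, all called. GAPDH, at 0.20 ± 0.08, was not (adjusted p = 0.0537). PGD, the pentose phosphate enzyme, rose by 0.16 ± 0.05 and PDK1, which restrains pyruvate oxidation, by 0.27 ± 0.09. These calls moved with the scaling. With CPM taken over total reads 6 members were called (5 higher, 1 lower) and after cyclic loess 9 (7 higher, 2 lower), against 16 (15 higher, 1 lower) under the authors' library sizes, and NDRG1, SLC2A10, SLC2A1, HK1 and VEGFA were called under all of them. The whole table shifted in the same direction: genes at 100 CPM or more in 22Rv1 had a median log2 change of 0.11, with 39.1% of them higher and 6.66% lower, against 0.03 over all genes and 0.13 over the listed genes. Genes of the mitochondrial genome took 3.15% to 3.44% of reads in the E2 libraries and 3.78% to 4.22% in those with vehicle. The ratio of total reads to the authors' library size was 0.946 to 0.962 with E2 and 0.895 to 0.924 with vehicle, and the part of either in the result was not tested. Without vehicle library 1 the count was 10 in place of 16, and ALDOC, PGAM1, ENO1, LDHA, LDHB and PDK1 were not called. Calls were also lost without vehicle library 2 (ALDOC, LDHB and PGD), E2 library 1 (ALDOC, ENO1, LDHB and PGD) and E2 library 2 (ALDOC, ENO1, LDHA, LDHB and PDK1). Many trunk enzymes have processed copies elsewhere in the genome, and how shared reads were counted is not given in the sources used here.

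**Figure D5:**
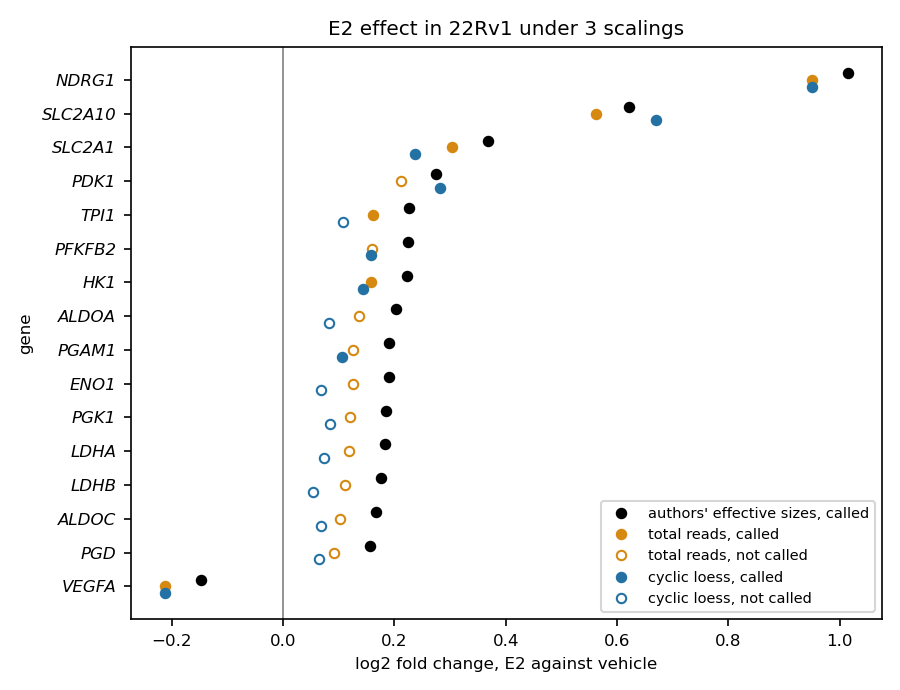
E2 effect in 22Rv1 (log2 fold change, horizontal axis) for the 16 members called there (vertical axis), under the authors' library sizes (black), total reads (orange) and cyclic loess (blue); filled points are called at an adjusted p of 0.05 and open points are not. NDRG1, SLC2A10, SLC2A1, HK1 and VEGFA are filled in all 3, and TPI1 falls from 0.23 to 0.16 and 0.11.

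The E2 effect differed between the lines for 14 of 39 members (background 29.1%). Beside NDRG1 and SLC2A3, these were ENO2, SLC2A1, PGD, TPI1, VEGFA, ALDOA, PGK1, ENO1, PDK1, PGAM1, GAPDH and LDHA. SLC2A3 is counted with its 22Rv1 values at the floor and passed the filter mainly through libraries with E2, so its place in this count is a description. The count was 8 without 22Rv1 vehicle library 1 or without the 3 libraries that stand apart, and 9 without 22Rv1 E2 library 2 or after cyclic loess.

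In LNCaP, E2 also lowered 5 listed genes. ENO2 read 11.4, 11.6 and 12.7 CPM with vehicle and 8.39, 7.27 and 9.14 with E2 (-0.50 ± 0.08, adjusted p = 2.7e-05), without overlap. EGLN3, the HIF hydroxylase most responsive to hypoxia, read 14.6, 12.5 and 17.1 CPM with vehicle, 11.2, 11.9 and 10.3 with E2, 19.3, 16.7 and 18.6 with Enza and 12.1, 13.9 and 14.02 with both. It was lower with E2 (-0.38 ± 0.09), higher with Enza (0.31 ± 0.09) and lower again with E2 on top of Enza (-0.43 ± 0.09). The Enza call was lost without vehicle library 2 (0.20, adjusted p = 0.148), Enza library 1 (0.26, 0.0823) or Enza library 3 (0.29, 0.0593). EPAS1, which encodes HIF2alpha, read 2.86, 2.90 and 3.10 CPM with vehicle and 2.04, 1.82 and 2.44 with E2 (-0.42 ± 0.14, adjusted p = 0.0238). This low gene lost its call without vehicle library 2 or 3 or E2 library 1 or 2 (-0.34, adjusted p = 0.118, in the last) and in the fit of all 54 libraries (adjusted p = 0.0918). PFKM, the muscle-type phosphofructokinase, changed by -0.16 ± 0.04 and SLC16A1 by -0.15 ± 0.03, both called. The small rises of PFKFB2 (0.13 ± 0.05) and PDK3 (0.12 ± 0.04) were not called by total reads or after cyclic loess.

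HIF1A itself rose in LNCaP with E2, from 98, 101 and 97.7 CPM to 113, 113 and 108 CPM (0.17 ± 0.03, adjusted p = 0.000288). Its level was 98.75 ± 1.57 CPM with vehicle, 105.5 ± 1.97 with Enza and 97.6 ± 3.38 with both (SD, n = 3). On top of Enza the E2 effect was -0.11 ± 0.03 (adjusted p = 0.013), a call lost without Enza library 3 (-0.10, 0.0667) or E2+Enza library 3 (-0.09, 0.0923). The interaction was -0.28 ± 0.05 (adjusted p = 0.000166). BNIP3L, a mitophagy receptor, read 89.1, 91.4 and 109.7 CPM with vehicle, 114, 107 and 119.7 with Enza and 89.7, 95.1 and 95.1 with both (0.23 ± 0.05 with Enza, -0.28 ± 0.05 on adding E2). Vehicle library 3 lay among the Enza values. EGLN1, the main HIF hydroxylase, rose with Enza by 0.16 ± 0.04. P4HA1, a collagen hydroxylase and HIF target, differed by -0.22 ± 0.06 on adding E2 to Enza, a call lost without Enza library 1 (-0.20, adjusted p = 0.0596), Enza library 3 (-0.16, 0.111) or E2+Enza library 1 (-0.19, 0.0691). Of the 10 HIF targets and regulators tested in LNCaP, 2 were higher and 2 lower with E2 (backgrounds 13.3% higher and 11.6% lower), and 1 higher (NDRG1) and 4 lower (EGLN3, BNIP3L, P4HA1 and HIF1A) with E2 on top of Enza (12.2% higher and 10.9% lower). LNCaP vehicle library 3 was the highest of its group for BNIP3 (95.6, 95.9 and 126 CPM), LDHA (551, 573 and 682 CPM) and NDRG1. Without it, the count of all listed genes in LNCaP was 11 for E2 (7 higher, 4 lower), 12 for Enza (8 higher, 4 lower) and 10 for the interaction (3 positive, 7 negative). VEGFA in LNCaP had intervals of -0.04 to 0.17 with E2 and -0.08 to 0.13 with Enza. In C4-2 it rose with Enza by 0.18 ± 0.05 (adjusted p = 0.017), a call lost without vehicle library 1 (0.13, adjusted p = 0.146), Enza library 2 (0.14, 0.13) or Enza library 3 (0.18, 0.0563).

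Beyond NDRG1 and SLC2A3, the interaction was called for SLC2A12, HK2, PFKFB3, SLC16A1, BNIP3L and HIF1A in LNCaP, 8 of 38 in all (4 positive, 4 negative; background 9.05%). SLC16A1 (0.16 ± 0.05) kept this call only without vehicle library 2, E2 library 2 or Enza library 1, of the 12 libraries left out in turn. BNIP3L (-0.26 ± 0.07) lost it without vehicle library 1 or 2, E2 library 2, Enza library 3 or E2+Enza library 1. In C4-2 it was called for 2 of 38, SLC2A12 (0.54 ± 0.11, adjusted p = 0.00579) and NDRG1 (background 1.5%). That count was 1 without vehicle library 2, E2 library 1, Enza library 2 or Enza library 3. In 22Rv1 NDRG1 alone of 37 was called (background 0.424%), and 2 were without E2+Enza library 3. The E2 count in C4-2 was 1 without E2 library 1. The count for E2+Enza against Enza in 22Rv1 was 5 in place of 3 without Enza library 2.

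No tested member was called under OSU in any line. At 100 nM, the same dose as E2, it left NDRG1 at 42.5, 47.2 and 48.4 CPM in LNCaP, with a 95% interval of the log2 change of -0.35 to 0.07, and SLC2A3 at 37, 17 and 34 reads (-0.18 to 0.63). In 22Rv1 the interval of SLC2A1 was -0.15 to 0.10. OSU against vehicle called 0 of 38, 0 of 38 and 0 of 37 members in LNCaP, C4-2 and 22Rv1, with 0.014%, 0.0% and 0.0% of all genes called by limma. At an unadjusted p under 0.05 there were 3, 0 and 0 members, against 6.64%, 2.82% and 2.0% of all genes, and with voom weights 0 in each line. OSU+Enza against Enza likewise called 0, 0 and 0 members (backgrounds 0.0982%, 0.0% and 0.101%), with 2, 1 and 5 at an unadjusted p under 0.05 (8.37%, 6.92% and 9.3% of all genes) and 0 in each line with voom weights. HK2 under OSU+Enza read 61.04, 61.99 and 65.3 CPM in LNCaP, near the Enza libraries and below those with E2+Enza. The smallest p in 22Rv1 was that of SLC16A1 (80.7, 84.9 and 77.6 CPM with Enza, 69.3, 62.1 and 73.8 with both; -0.25 ± 0.05, adjusted p = 0.0728). In 22Rv1, 1 member was called without Enza library 3 or OSU+Enza library 3, by TMM scaling, after cyclic loess and in the fit of all 54 libraries. The difference between the E2 and OSU effects was not tested.

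Related genes from lists that the 41 do not hold gave the setting. Of 18 further genes of pyruvate handling, E2 called 7 of 16 tested in LNCaP (4 higher, 3 lower), 2 of 16 in C4-2 and 6 of 18 in 22Rv1 (5 higher, 1 lower). MPC2, a subunit of the mitochondrial pyruvate carrier, was higher with E2 in each line (0.54 ± 0.03, 0.23 ± 0.05 and 0.45 ± 0.05) and lower with Enza in LNCaP (-0.36 ± 0.03) and C4-2 (-0.43 ± 0.05). Of 20 citrate cycle genes, 2 were higher with E2 in LNCaP, none in C4-2 and 14 in 22Rv1, with none lower, where 13.3%, 2.72% and 17.1% of all genes were higher. The 22Rv1 count was 11 by TMM scaling, 4 after cyclic loess and 1 by total reads. It was 5 without vehicle library 1 and 6 without vehicle library 2, alternatives chosen after seeing the data. Of 31 further HIF targets, E2 called 7 higher and 6 lower of 30 tested in LNCaP, 3 and 4 of 28 in C4-2, and 7 and 3 of 29 in 22Rv1. Of 9 tested genes of the HIF pathway, 4 were higher and 1 lower in LNCaP, none was called in C4-2, and 4 were higher in 22Rv1. LOX, a collagen cross-linking oxidase, was higher with E2 in LNCaP (1.35 ± 0.12) and C4-2 (1.07 ± 0.16), as were the lipoprotein receptor VLDLR (1.02 ± 0.08) and the repressor BHLHE40 (0.86 ± 0.06) in LNCaP. The carbonic anhydrase CA12 was lower there (-0.34 ± 0.05). PDK4, which restrains pyruvate oxidation, was higher with E2 in 22Rv1 (1.10 ± 0.08), and the monocarboxylate carrier SLC16A7 was lower in LNCaP (-0.67 ± 0.09) and 22Rv1 (-0.71 ± 0.07). With Enza, the further HIF targets gave 6 higher and 4 lower of 30 in LNCaP. These counts have the same backgrounds as those of the listed genes.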

How the data were processed

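RNA-seq of 54 libraries was analysed. Per the submitters' processing notes and the design text, the authors used FastQC, Trimmomatic, featureCounts, Rsubread and edgeR with hg38, with no version stated. The deposited values, which the labels call CPM, are treated as a score. Each is a log2 CPM, made after 0.5 reads were added, and rescaled so that every deposited column sums to 1000000. This was undone, and 100% of values came out as whole reads within 0.01. CPM over the authors' library sizes was then computed. Because the deposited unit is a score, limma 3.58.1 in R 4.3.3 (trend) was run on log2(CPM + 0.5), in place of a count test, for genes at 1 CPM or more in 3 libraries of the fit. Treatments were tested within a line (18 libraries, leaving 12 degrees of freedom), and lines in a joint fit of 54. P-values were two-sided and Benjamini-Hochberg adjusted over all genes. CPM values carry SD and log2 changes SE. The members and gene lists were chosen with earlier results of these data known. All 41 members could be named. In each comparison, values are given for the called members with the largest changes, and for E2 against vehicle also for the carriers, hexokinases, PFKFB enzymes and HIF genes; other members are given by counts. Lengths are of GENCODE MANE transcripts. Alternatives were other pseudocounts, filters, scalings, voom weights, a replicate block and leaving out libraries.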

Additional observations from a re-analysis of the deposited data

Results flagged for a closer look

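The effect of E2 against vehicle differed between the 3 lines for 14 members, where 29.1% of all genes differed. The test was an F test over the lines in the fit of 54 libraries (limma, adjusted over all genes). Leaving out single libraries gave 8 to 18 members. The adjusted p was 1.78e-15 for SLC2A3, a value that includes 22Rv1 at the floor of detection and rests on a gene that passed the filter through its E2 libraries. Between C4-2 and LNCaP alone its E2 effect differed by -1.71. The adjusted p was 1.39e-14 for NDRG1, with the larger effect in LNCaP than in C4-2 (by -1.82) or 22Rv1 (by -1.40). ENO2 followed at 0.000197, with a lower level under E2 in LNCaP. The remaining genes were SLC2A1 (adjusted p = 0.00237), PGD (0.003), TPI1 (0.00484), VEGFA (0.00585), ALDOA (0.0104), PGK1 (0.0115), ENO1 (0.0166), PDK1 (0.0167), PGAM1 (0.0248), GAPDH (0.0303) and LDHA (0.046). The difference of 22Rv1 from LNCaP was 0.26 for SLC2A1, 0.34 for PDK1 and -0.21 for VEGFA (log2).

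The effect of Enza against vehicle differed between the lines for 7 members by the same test, where 13.3% of all genes differed. Leaving out single libraries gave 4 to 10 members. The adjusted p was 0.00529 for SLC2A3, 0.00846 for SLC2A12, 0.0116 for HK2, 0.0176 for PFKFB3, 0.0361 for PFKFB2, 0.0447 for BNIP3L and 0.049 for VEGFA. For SLC2A3 the test again includes 22Rv1 at the floor, and C4-2 minus LNCaP was 0.25 (adjusted p = 0.527). C4-2 minus LNCaP was 0.24 for HK2 (adjusted p = 0.0487), and it was not called for SLC2A12 (-0.29, 0.106) or PFKFB3 (0.20, 0.133). 22Rv1 minus LNCaP was 0.29 for HK2 (0.0108) and 0.31 for PFKFB3 (0.0109), and 22Rv1 minus C4-2 was 0.46 for SLC2A12 (0.00478).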

How the results depend on the processing

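Counts of listed genes called moved with the scaling. The share of all genes called in each refit is not given here, so these counts do not show whether the listed genes moved apart from the whole table. By total reads they were 4 for E2 in C4-2, 6 for E2 in 22Rv1 and 4 for the Enza effect between lines. By TMM they were 4 for E2 in C4-2 and 1 for OSU+Enza in 22Rv1. After cyclic loess they were 6 for E2 in C4-2, 9 for E2 in 22Rv1, 6 for E2+Enza in 22Rv1, 1 for OSU+Enza in 22Rv1 and 9 for the E2 effect between lines. In 1 fit of all 54 libraries they were 4 for E2 in C4-2, 6 for E2+Enza in 22Rv1 and 1 for OSU+Enza in 22Rv1. With no filter the C4-2 interaction count was 1. Without the 3 libraries that stand apart, an alternative chosen after seeing the data, they were 2 for Enza in C4-2, 8 for the E2 effect between lines and 3 for the Enza effect. The causes were not tested.

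Leaving out each library in turn gave 8 to 11, 1 to 3 and 10 to 17 for E2 in LNCaP, C4-2 and 22Rv1, and 7 to 12, 2 to 5 and 0 to 1 for Enza. It gave 10 to 17, 3 to 5 and 2 to 5 for E2+Enza, 6 to 10, 1 to 3 and 1 to 2 for the interaction, and 0 to 1 for OSU+Enza in 22Rv1. It gave 8 to 18 for the E2 effect and 4 to 10 for the Enza effect between lines. Over 933 single-gene values from these refits 109 lost their call and 0 changed sign. The SLC2A3 interaction in LNCaP became 1.35 with voom weights, the 1 reversal found.

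Deviations of same-numbered libraries from their group means correlated at -0.515 to 0.428 within a line. The median was 0.0069 in LNCaP, -0.0027 in C4-2 and -0.0012 in 22Rv1. The numbers were not treated as pairs, though a spread this wide cannot exclude pairing of some libraries. With a replicate block the counts were 14 for E2+Enza in LNCaP, 4 for Enza in C4-2 and 29 for C4-2 against LNCaP, and all other counts were as without it; 4 of 145 single-gene values lost their call. At 0.0204 to 0.0323 CPM per read, SLC2A3 in 22Rv1 lies within a few reads of 0, and no change can be read there.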
